A study of Mus musculus with 29 samples.

Results

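The genes of sterol and fatty acid synthesis were followed in CD4+ T cells that had been activated with or without transforming growth factor beta (TGF-beta) and lactic acid. The set holds 32 mouse genes, listed by symbol from their known roles, with earlier results of these data in view, and with no threshold on a measured difference: 8 enzymes from acetyl-CoA to squalene, 10 enzymes from squalene to cholesterol, 4 regulators or sterol carriers, and 10 enzymes of fatty acid synthesis, elongation and desaturation. Every member had at least 10 counts in at least 3 libraries, so all 32 of 32 were described, out of 14178 genes that passed the same minimum. All 32 members were also among the 14375 genes that passed the filter of the statistical test.

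CD4+ T cells were isolated from spleens of Foxp3-RFP reporter mice (genotype C57BL/6-Foxp3tm1Flv/J), in which a red fluorescent protein marks cells that make Foxp3, the transcription factor of regulatory T cells. All cultures carried the reporter allele and received anti-CD3 at 1.25 µg/ml, anti-CD28 at 2.5 µg/ml and interleukin-2 at 50 IU/ml in medium with 0.5 mM glucose, and what was varied was TGF-beta (3 ng/ml), lactic acid (10 mM), the time (24 or 72 h) and the sorted population. The 10 groups were RFP+ regulatory T cells (Treg) at 72 h with TGF-beta plus lactic acid or TGF-beta alone, RFP- conventional T cells (Tcon) at 72 h with TGF-beta plus lactic acid, TGF-beta alone, lactic acid alone or neither, and Tcon at 24 h with the same 4 treatments. Each group had 3 libraries except Tcon at 72 h with neither, which had replicates 1 and 2 (n = 2), so that 29 libraries were compared. Replicate 1 came from male and replicates 2 and 3 from female mice, so the sex of the source mice and the replicate number cannot be told apart, and no label says that replicates 2 and 3 were separate animals or that both times were 1 experiment; p-values therefore measure the spread between these libraries. The Treg groups are cells that carried RFP after culture with TGF-beta, and no RFP+ library without TGF-beta was analysed here.

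Cholesterol is built from acetyl-CoA through mevalonate, isopentenyl diphosphate, farnesyl diphosphate and squalene, and then through a series of sterol intermediates. When sterols in the endoplasmic reticulum are low, the membrane-bound transcription factors SREBP1 and SREBP2, the products of Srebf1 and Srebf2, travel to the Golgi, are cut and switch on these enzymes, while the Insig proteins hold them back when sterols are plentiful. Fatty acid synthase makes palmitate, which the elongases lengthen and the desaturases (Scd and Fads enzymes) make unsaturated, and dividing T cells use both routes to make membrane.

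Promoter windows, from 250 bases before to 50 bases after the annotated start, were matched by symbol in a RefSeq table (assembly GRCm38.p6) for 25 of the 32 members, which have 31 windows between them; Scd1, Scd2, Fads1, Sqle, Fdft1, Fdps and Stard4 had no match. The windows of Fads2, Pmvk and Tm7sf2 are shown because these genes differed in the most comparisons among the members with a window, and that of Hmgcs1 because its letters hold the classical sterol regulatory element; Hmgcs1 was chosen after its sequence was seen. Each is printed on the gene's own strand in lower case, with 3 searched motifs in capitals: the sterol regulatory element TCACNCCAC, the NF-Y box CCAAT, which reads as ATTGG where it lies on the other strand, and the SREBP E-box TCACGTGA.
Fads2 (desaturase), chr19:10101454-10101753, minus strand: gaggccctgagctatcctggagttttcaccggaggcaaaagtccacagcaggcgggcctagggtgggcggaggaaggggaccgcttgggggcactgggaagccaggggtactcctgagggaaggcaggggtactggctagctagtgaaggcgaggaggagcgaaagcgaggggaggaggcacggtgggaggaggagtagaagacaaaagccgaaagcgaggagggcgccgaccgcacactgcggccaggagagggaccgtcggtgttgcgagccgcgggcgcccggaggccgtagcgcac
Pmvk (phosphomevalonate kinase), chr3:89454291-89454590, plus strand: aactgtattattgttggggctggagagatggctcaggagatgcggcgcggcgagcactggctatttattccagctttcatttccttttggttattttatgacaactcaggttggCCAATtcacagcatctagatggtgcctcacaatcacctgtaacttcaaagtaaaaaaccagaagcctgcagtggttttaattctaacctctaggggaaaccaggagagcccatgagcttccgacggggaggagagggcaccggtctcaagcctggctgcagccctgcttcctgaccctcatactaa
Tm7sf2 (sterol reductase), chr19:6067801-6068100, minus strand: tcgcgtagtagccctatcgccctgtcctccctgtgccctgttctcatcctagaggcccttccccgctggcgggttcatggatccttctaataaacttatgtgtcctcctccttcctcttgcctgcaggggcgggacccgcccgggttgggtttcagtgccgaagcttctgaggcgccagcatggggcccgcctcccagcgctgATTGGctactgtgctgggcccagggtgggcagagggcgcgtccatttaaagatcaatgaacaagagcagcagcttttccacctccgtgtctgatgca
Hmgcs1 (HMG-CoA synthase), chr13:119690101-119690400, plus strand: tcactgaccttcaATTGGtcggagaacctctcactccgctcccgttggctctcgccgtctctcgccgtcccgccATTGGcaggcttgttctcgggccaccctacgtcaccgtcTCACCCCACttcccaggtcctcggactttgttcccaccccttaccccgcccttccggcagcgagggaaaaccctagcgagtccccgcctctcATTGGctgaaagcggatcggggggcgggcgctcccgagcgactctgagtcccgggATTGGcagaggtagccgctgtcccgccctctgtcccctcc

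The Fads2 window held none of the 3 motifs, the Pmvk window held 1 CCAAT and the Tm7sf2 window held 1 ATTGG. The Hmgcs1 window held TCACCCCAC, which starts 137 bases before the annotated start, and 4 copies of ATTGG. The bases just after that start were not found in the Hmgcs1 transcripts used here, so the distance is to the table's start only. Searched on both strands, CCAAT was present in 22 of the 31 member windows (71.0%), against 37.4% of all 32851 windows, and in 21 of the 25 members with a window. TCACNCCAC was present in 1 member window, that of Hmgcs1, against 1.24% of all windows, and TCACGTGA was in no member window, against 0.974% of all windows. The matches in the Hmgcs1 window do not overlap one another. A match describes these letters only, and the absence of a match says only that the letters are not in this window.

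The libraries held 9754511 to 14315313 counts assigned to genes (median 12106958). The first principal component (52.3% of the variance) separated the times, and the third (7.78%) set replicate 1 apart at 72 h. Foxp3 lay between 153 and 573 CPM (the count relative to the library's total, scaled for composition) in the Treg libraries, against 15.4 to 59.8 CPM in the 72 h Tcon libraries with TGF-beta. The defining T cell genes were present in every library (Cd3e 256 to 572 CPM, Cd4 419 to 669 CPM). The 6 B cell markers summed to at most 5.14 CPM and the 6 myeloid markers to at most 5.99 CPM in any library, with Ms4a1, Lyz2 and Csf1r at 0 in the median library. The 6 CD8 and NK cell markers summed to 28.6 to 126 CPM, with Nkg7 at up to 113 CPM, Cd8b1 at up to 14.1 CPM and Ncr1 at most 0.159 CPM. In libraries made from many cells, fewer cells of a type and less RNA per cell cannot be told apart, and CPM values are not scaled by gene length, so levels are compared within a gene only.

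**Figure D1:**
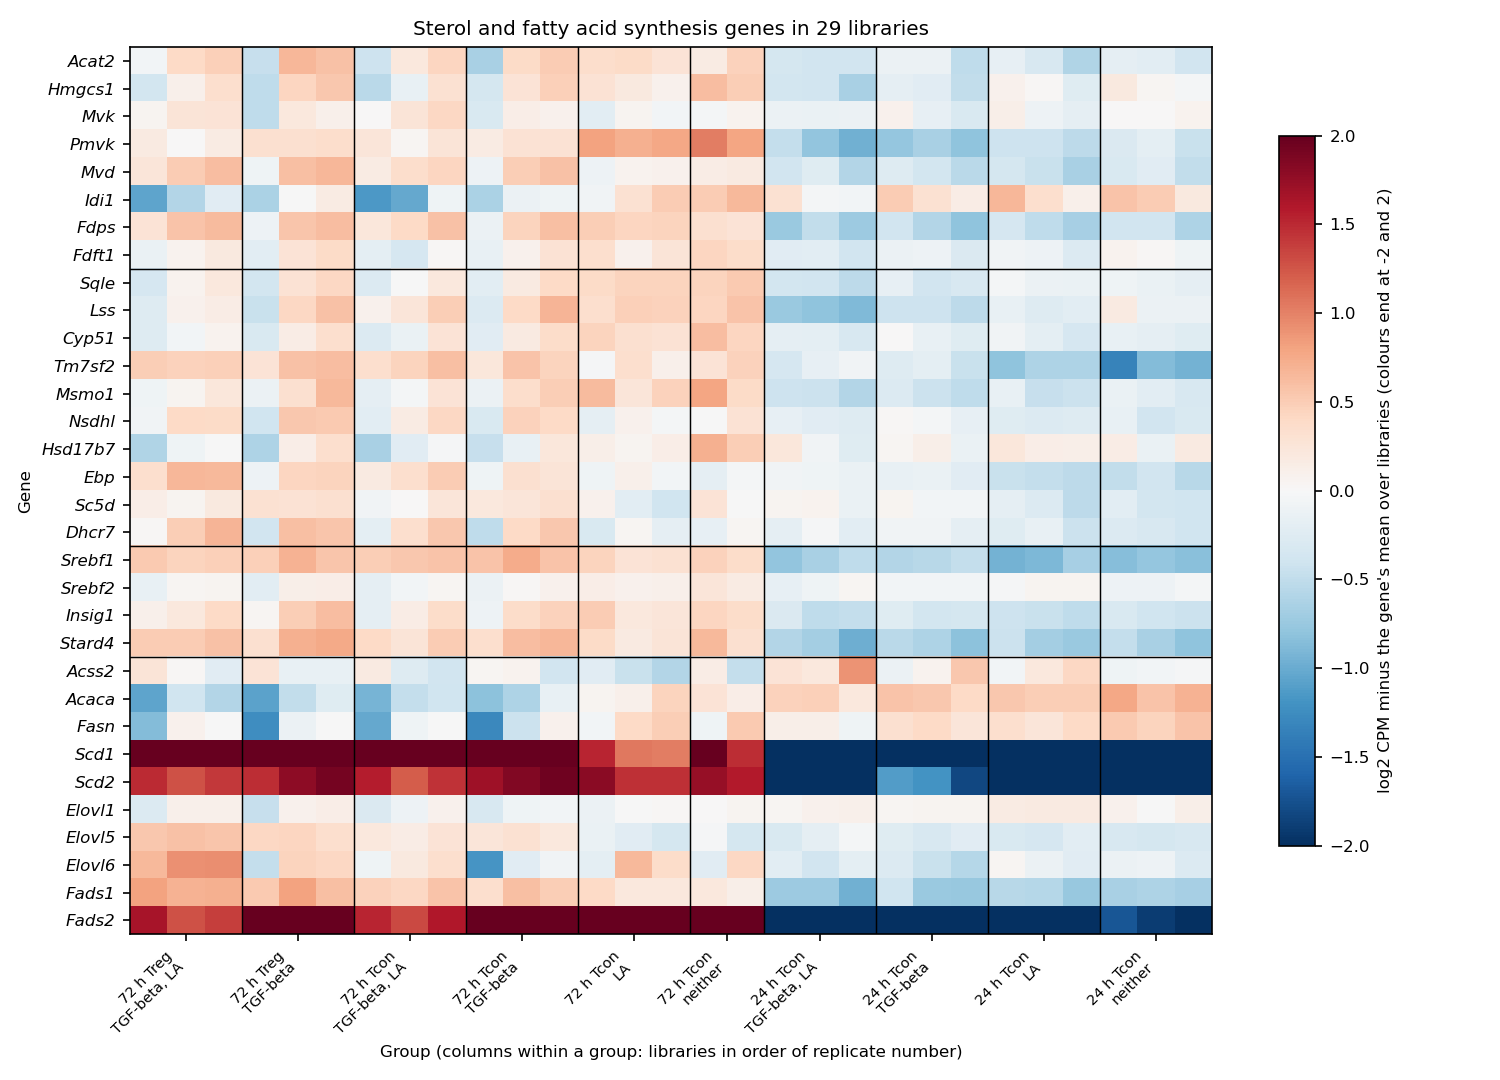
Levels of the 32 members (rows, grouped by role) in the 29 libraries (columns, grouped by time, cell type and treatment, LA for lactic acid), as log2 CPM minus the gene's mean over all libraries, with higher values in red and lower values in blue and colours ending at -2 and 2. Scd1, Scd2 and Fads2 separated all 72 h libraries from all 24 h libraries, and most sterol enzymes were low in replicate 1 of the 72 h groups with TGF-beta.

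More members differed with time than with any other condition, and so did more of all genes. In Tcon with neither agent, 18 of the 32 members were higher at 72 h than at 24 h at an adjusted p below 0.05 (edgeR quasi-likelihood test, Benjamini-Hochberg adjustment over all 14375 genes), where 27% of all tested genes were higher. None was lower by that test, where 18.4% of all genes were; 1 member was lower with an unadjusted p below 0.05, and DESeq2 called 1 lower. With lactic acid, 18 members were higher and 1 lower, against 26.5% and 20.1% of all genes. With TGF-beta, 17 were higher and 2 lower, against 28% and 24.8%, and with TGF-beta plus lactic acid 16 were higher and 3 lower, against 24.4% and 23%. In either direction, 45.4%, 46.6%, 52.8% and 47.3% of all genes were called in these 4 comparisons. Nothing particular to the members is read from the counts in either direction. The median log2 difference over all 32 members was 0.51, 0.48, 0.41 and 0.42 in these 4 comparisons, against 0.05, 0.02, 0.01 and -0.02 over all genes tested. The 4 comparisons use different libraries, but same-numbered libraries of a time deviated together, so the comparisons are not independent of each other. Sums of markers of other cell types also differed between the times. The CD8 and NK cell markers summed to 49.7 and 126 CPM at 72 h, against 34.3 to 36.8 CPM at 24 h with neither agent, to 40.9 to 103 CPM, against 28.6 to 30.5 CPM with lactic acid, to 102 to 110 CPM, against 58.4 to 65.7 CPM with TGF-beta, and to 108 to 124 CPM, against 50.6 to 53.0 CPM with both. The B cell markers summed to 3.77 and 5.14 CPM at 72 h, against 0.92 to 1.04 CPM at 24 h with neither agent, and to 3.44 to 4.05 CPM, against 0.729 to 1.51 CPM with lactic acid, and overlapped between the times with TGF-beta and with both. Nkg7 was the largest part of each CD8 and NK sum. With neither agent Nkg7 had 113 and 43.1 CPM at 72 h, against 20.7, 23.3 and 22.8 CPM at 24 h. Cd8a was lower at 72 h there (0.257 and 0.461 CPM, against 0.815, 1.26 and 0.889 CPM), while Cd8b1 and Klrd1 overlapped. With TGF-beta and with both agents, Cd8a was higher at 72 h. The part of such cells in the members' differences was not tested.

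In the comparison with neither agent, Scd1, Scd2 and Fads2 differed by more than the other 29 members. Scd1, the stearoyl-CoA desaturase that makes oleate and palmitoleate, had 115 and 77.9 CPM in the 72 h Tcon libraries with neither agent, against 1.04, 0.92 and 0.711 CPM at 24 h. Scd2, a close relative with the same reaction, had 2261 and 2016 CPM at 72 h, against 156, 138 and 112 CPM at 24 h. Fads2, the delta-6 desaturase that starts the synthesis of long polyunsaturated fatty acids, had 134 and 83.4 CPM at 72 h, against 3.33, 2.93 and 1.24 CPM at 24 h. The groups did not overlap for any of these genes. The log2 difference was 6.73 ± 0.42 for Scd1 (SE, adjusted p = 2.34e-11), 3.99 ± 0.21 for Scd2 (adjusted p = 1e-12) and 5.41 ± 0.28 for Fads2 (adjusted p = 1e-12; edgeR).

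Scd1, Fads2 and Scd2 also led the other 3 time comparisons. With lactic acid, Scd1 had 80.3, 58.4 and 56.7 CPM at 72 h, against 0.251, 0.246 and 0.0911 CPM at 24 h, and Fads2 had 99.8, 62.6 and 70.2 CPM, against 1.25, 0.985 and 1.00 CPM. With both agents, Scd2 had 2002, 1568 and 1826 CPM at 72 h, against 156, 155 and 109 CPM at 24 h. Under every treatment all 72 h libraries lay above all 24 h libraries for the 3 genes. The log2 difference of Scd1 was 8.28 ± 0.51 with lactic acid, 6.31 ± 0.35 with TGF-beta and 7.03 ± 0.38 with both. That of Fads2 was 6.15 ± 0.30, 5.14 ± 0.28 and 6.09 ± 0.34, and that of Scd2 was 4.63 ± 0.21, 3.18 ± 0.19 and 3.68 ± 0.20. All 9 of these values were called. The 24 h ends of these differences rest on few reads: the libraries held 1 to 3 Scd1 counts each with lactic acid (7 in all), 8 to 14 with neither (33 in all), 22 to 35 with both (83 in all) and 52 to 83 with TGF-beta (213 in all), so the Scd1 difference with lactic acid in particular depends on the fit. Fads2 had 17 counts in all at 24 h with both agents and 38 to 94 in the other 24 h groups. Scd2 and Scd1 lie near each other on chromosome 19, with 2 annotated genes between them in GRCm38.p6, and Fads1 and Fads2 lie on the same chromosome with 1 gene between them.

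**Figure D2:**
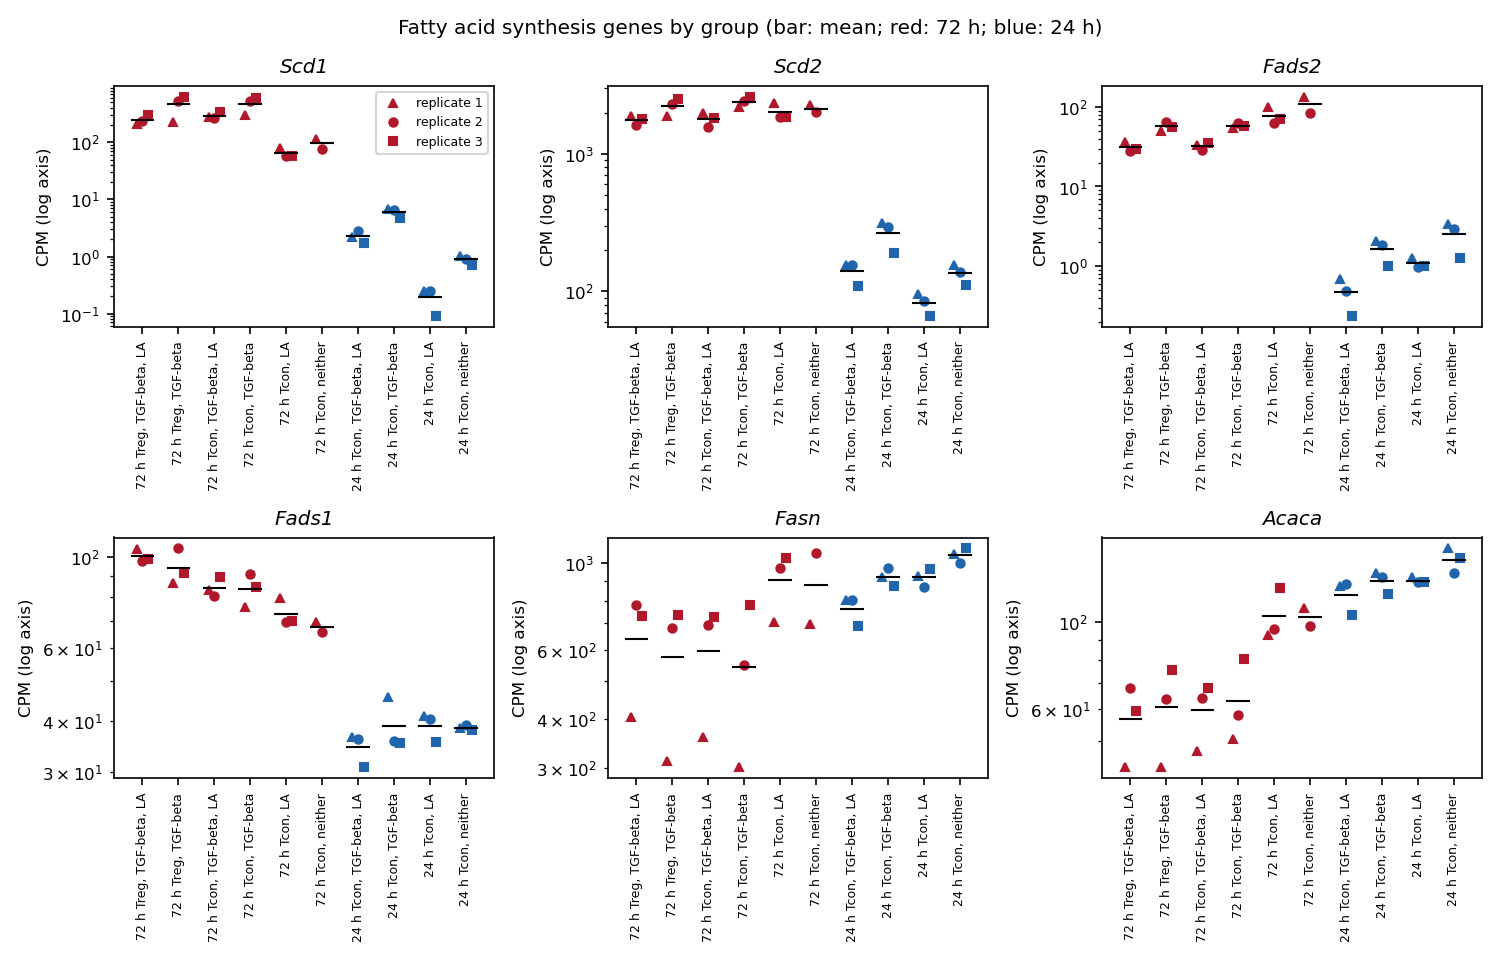
CPM (log axis) of Scd1, Scd2, Fads2, Fads1, Fasn and Acaca, 1 point per library shaped by replicate number, with the groups along the horizontal axis (72 h in red, 24 h in blue, LA for lactic acid) and a bar at each group's mean. All 72 h values of Scd1 and of Scd2 lie above all 24 h values, and Scd1 lies higher in the 72 h groups with TGF-beta (209 CPM and above) than in those without (56.7 to 115 CPM).

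Other fatty acid genes differed less with time, and in both directions. Fads1, the delta-5 desaturase, was higher at 72 h under all 4 treatments, by 0.81 ± 0.11 with neither, 0.90 ± 0.10 with lactic acid, 1.11 ± 0.10 with TGF-beta and 1.29 ± 0.10 with both (log2, SE; highest adjusted p = 3.43e-06). With both agents it had 83.2, 80.4 and 89.2 CPM at 72 h, against 36.4, 36.2 and 30.8 CPM at 24 h, with no overlap. Elovl5, an elongase of polyunsaturated fatty acids, was higher at 72 h with TGF-beta (0.52 ± 0.08, adjusted p = 1.21e-05) and with both agents (0.38 ± 0.08, adjusted p = 4.01e-04). Acaca, the acetyl-CoA carboxylase that commits carbon to fatty acids, had 50.5, 58.1 and 80.7 CPM at 72 h with TGF-beta, against 133, 130 and 117 CPM at 24 h. It was thus lower at 72 h in every library, by -1.01 ± 0.19 on the log2 scale with TGF-beta (adjusted p = 1.15e-04) and -0.97 ± 0.19 with both agents (adjusted p = 1.87e-04). Fasn, fatty acid synthase, was called lower at 72 h with TGF-beta (-0.76 ± 0.31, adjusted p = 0.0445), a call that ended without any 1 of 5 of the 6 libraries, and without the 72 h replicate 1 library the value was -0.47 (adjusted p = 0.229). Acss2, which makes acetyl-CoA from acetate, was lower at 72 h with lactic acid and with both agents (-0.63 ± 0.22 in each, adjusted p = 0.0237 and 0.0207). The call with lactic acid ended without any 1 of 4 libraries (adjusted p = 0.0506 to 0.111). That with both agents ended without 24 h replicate 3 (-0.37, adjusted p = 0.189) or 72 h replicate 2 (0.0687) or 3 (0.0932). It was also lost with the compared groups fitted alone.

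Of the 4 regulators and carriers, all were called higher at 72 h with neither agent, and 3 under each of the other treatments. Of all genes tested, 27% were higher with neither agent, 26.5% with lactic acid, 28% with TGF-beta and 24.4% with both. Srebf1 had 244 and 228 CPM at 72 h with neither agent, against 97.5, 103 and 99.4 CPM at 24 h, a log2 difference of 1.24 ± 0.09 (adjusted p = 3.95e-10). It was higher by 1.17 to 1.18 in the other 3 comparisons. Srebf2, the regulator most tied to sterol synthesis, had 557 and 527 CPM at 72 h, against 439, 438 and 458 CPM at 24 h. The groups did not overlap, and the log2 difference was 0.28 ± 0.10 (adjusted p = 0.0192), but without 72 h replicate 1 it was 0.25 (adjusted p = 0.151), and it was not called under the other 3 treatments. Insig1, which holds the SREBP proteins in the endoplasmic reticulum and is itself an SREBP target, had 113 and 109 CPM at 72 h, against 67.5, 63.8 and 62.2 CPM at 24 h (0.78 ± 0.16, adjusted p = 4.08e-04). Stard4, a carrier of cholesterol between membranes, had 173, 209 and 216 CPM at 72 h with TGF-beta, against 93.3, 89.0 and 77.2 CPM at 24 h (1.20 ± 0.13, adjusted p = 9.52e-08), and the groups did not overlap for it or for Insig1.

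Of the 8 enzymes up to squalene, 4 were called higher at 72 h with neither agent, 5 with lactic acid, 3 with TGF-beta and 3 with both, where 1 was also lower. Of all genes tested, 27%, 26.5%, 28% and 24.4% were higher in the same order, and 23% were lower with both. Nothing particular to these enzymes as a list is read from the counts. Pmvk, which makes mevalonate diphosphate, had 67.1, 62.5 and 65.1 CPM at 72 h with lactic acid, against 28.8, 28.6 and 26.4 CPM at 24 h. No libraries overlapped, and Pmvk was higher by 1.21 ± 0.10 (adjusted p = 1.93e-09), and by 1.22 ± 0.11 with neither agent, 1.00 ± 0.10 with TGF-beta and 0.92 ± 0.10 with both. Fdps, which makes farnesyl diphosphate, was higher by 0.76 ± 0.19 to 1.07 ± 0.18 in the 4 comparisons, and Mvd, the decarboxylase that follows Pmvk, by 0.49 ± 0.17 to 0.74 ± 0.17. Idi1, the isopentenyl diphosphate isomerase, was the member called lower with both agents (-0.75 ± 0.26, adjusted p = 0.0204), and the call ended without 24 h replicate 1 or without 72 h replicate 1 or 2 (adjusted p = 0.0863 to 0.121). Idi1 was at -0.43 in replicates 2 and 3 alone, where it was not called. Mvk and Hmgcs1, the mevalonate kinase and the HMG-CoA synthase, were not called in any time comparison.

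Of the 10 enzymes from squalene to cholesterol, 6 were called higher at 72 h with neither agent, 6 with lactic acid, 6 with TGF-beta and 5 with both. The shares of all genes higher were 27%, 26.5%, 28% and 24.4% in the same order. Tm7sf2, a sterol C14 reductase, had 14.4 and 16.4 CPM at 72 h with neither agent, against 4.59, 6.44 and 6.05 CPM at 24 h. The groups did not overlap, with a log2 difference of 1.44 ± 0.15 (adjusted p = 9.92e-08), against 0.85 ± 0.14, 0.72 ± 0.14 and 0.66 ± 0.14 with lactic acid, TGF-beta and both. Msmo1, the methylsterol monooxygenase, was higher by 0.51 ± 0.17 to 0.82 ± 0.19 and Sqle, the squalene epoxidase, by 0.41 ± 0.16 to 0.62 ± 0.18 in all 4 comparisons. Single left-out libraries ended the calls of Sqle with TGF-beta and with both agents, of Msmo1 with neither and with both, and of Mvd with neither and with lactic acid (adjusted p = 0.0518 to 0.208). They also ended those of Ebp and Sc5d, each with neither and with TGF-beta (adjusted p = 0.0533 to 0.205). The calls of Fdft1 with neither and with lactic acid and of Acat2 with lactic acid ended too (adjusted p = 0.0532 to 0.154). Lss, which closes squalene epoxide into lanosterol, was called with lactic acid (0.63 ± 0.20), TGF-beta (0.77 ± 0.20) and both agents (1.10 ± 0.20, adjusted p = 1.16e-04). Nsdhl, Hsd17b7 and Dhcr7, which act on later intermediates, were not called in any of the 4.

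Other genes of the pathway, from lists fixed for this work with earlier results of these data known, were read for the comparison with neither agent. Of 11 tested genes for other sterol synthesis, SREBP processing and sterol uptake, 4 were higher and 1 lower at 72 h. Insig2, a relative of Insig1, was higher by 1.40 ± 0.16 (adjusted p = 2.09e-07) and Npc2, which takes cholesterol out of lysosomes, by 1.08 ± 0.12 (adjusted p = 1.4e-07). Of 6 genes of the oxysterol receptors LXR and their targets, 2 were higher and 2 lower, and Mylip, a ligase that removes the LDL receptor, was lower by -1.64 ± 0.26 (adjusted p = 1.86e-05). Of 17 other fatty acid genes 8 were higher and 2 lower, and of 15 genes of the nonsterol isoprenoid branch 1 was higher and 2 lower. Over all genes tested, 27% were higher and 18.4% lower in this comparison, and nothing particular to these lists is read from their counts.

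**Figure D3:**
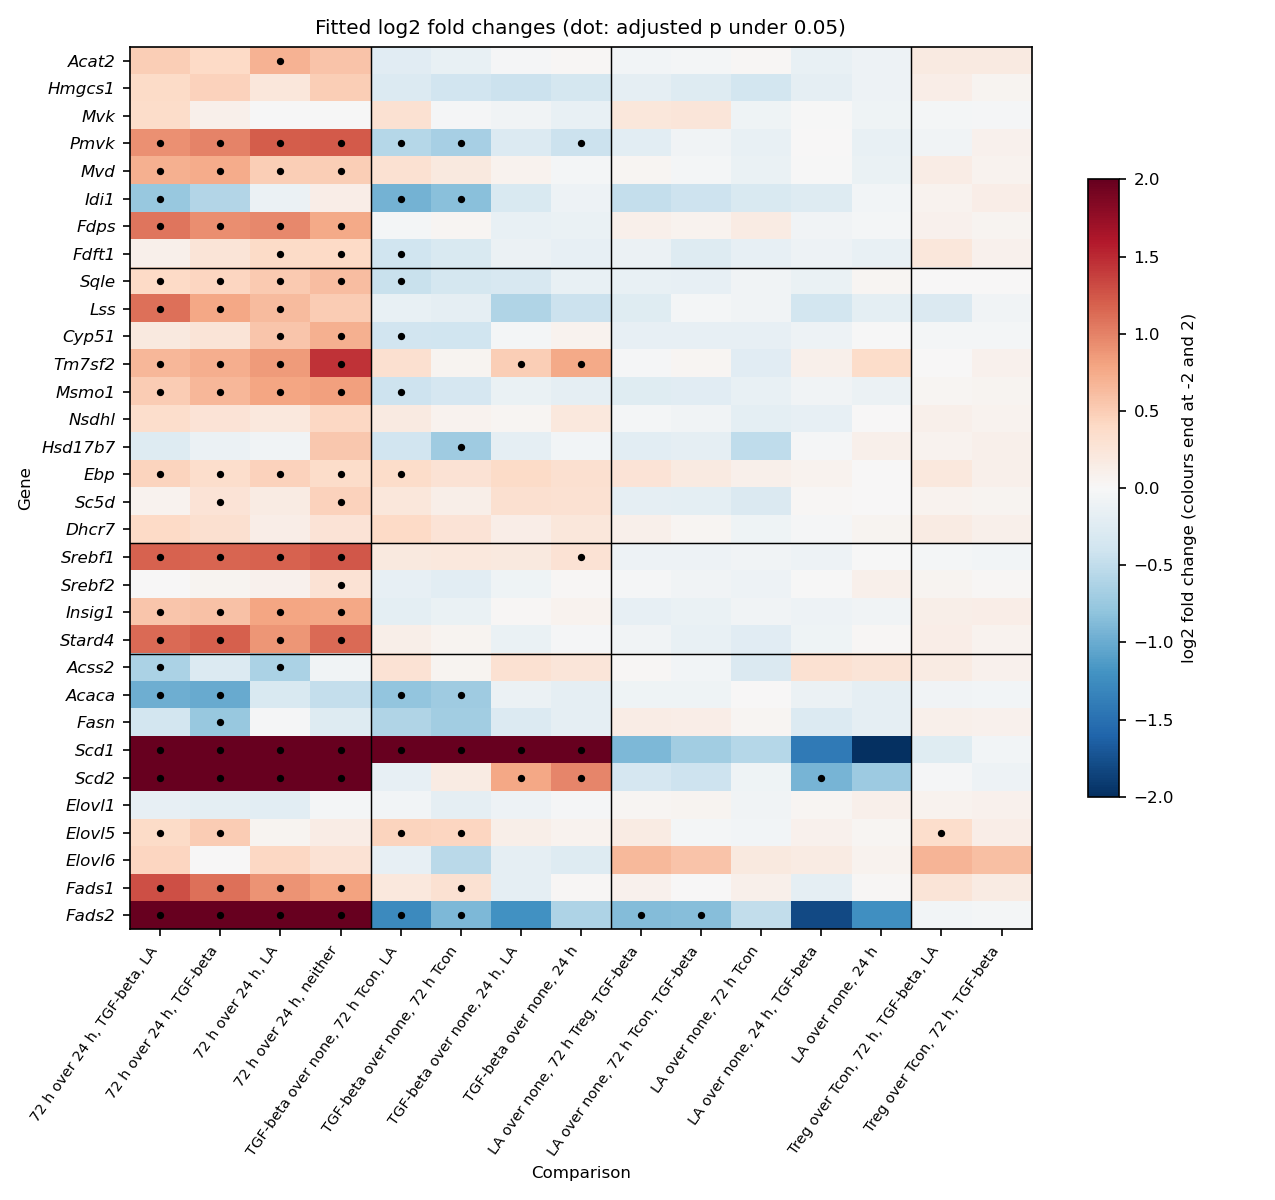
Fitted log2 fold changes of the 32 members (rows) in the 15 comparisons between 2 groups (columns, named as the group on top over the other), with red for higher and blue for lower, colours ending at -2 and 2, LA for lactic acid, and a dot where the adjusted p was under 0.05. Dots are densest in the time comparisons at left, where the sterol enzymes Mvk, Hmgcs1, Nsdhl, Hsd17b7 and Dhcr7 have none. Scd1 is red in all 8 time and TGF-beta comparisons (2.18 and above), and few dots stand in the lactic acid and Treg columns.

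TGF-beta went with higher Scd1, Scd2 and Tm7sf2 at 24 h. The TGF-beta, lactic acid and time comparisons of a group share its libraries, so their values are not independent of each other. In Tcon without lactic acid at 24 h, 4 members were called higher and 1 lower with TGF-beta, where 7.97% and 3.35% of all genes were. With lactic acid, 3 were called higher, where 8.08% of all genes were, and none lower, where 4.4% were, although 3 were lower with unadjusted p under 0.05, and DESeq2 put 3 lower. With another scaling (relative log expression), the split with lactic acid was 3 higher and 2 lower. Since same-numbered libraries of a time deviated together, the fit with the replicate number as a block was also read, and it called 8 members without lactic acid (6 higher and 2 lower), against 31.5% of all genes in either direction, and 9 with it (5 higher and 4 lower), against 32.1%. In replicates 2 and 3 alone, 9 and 8 members were called. Counts from DESeq2, relative log expression scaling and replicates 2 and 3 alone stand without the share of all genes, here and elsewhere. Nothing particular to the members is read from them. The median over all members was -0.02 without and -0.10 with lactic acid, against 0.00 and 0.01 over all genes. The CD8 and NK markers summed to 58.4 to 65.7 CPM with TGF-beta alone, against 34.3 to 36.8 CPM with neither. Nkg7 was higher (58.9, 59.1 and 54.0 CPM, against 20.7, 23.3 and 22.8 CPM). Cd8b1 was lower (6.03, 4.94 and 3.38 CPM, against 12.4, 11.5 and 10.5 CPM), as was Cd8a, and Klrd1 overlapped. The part of such cells in the members' differences was not tested.

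Scd1 had 6.77, 6.52 and 4.75 CPM with TGF-beta alone at 24 h, against 1.04, 0.92 and 0.711 CPM with neither. Scd2 had 312, 295 and 191 CPM with TGF-beta alone, against 156, 138 and 112 CPM with neither, and Tm7sf2 had 9.86, 10.4 and 8.68 CPM, against 4.59, 6.44 and 6.05 CPM. No libraries of these groups overlapped. The log2 differences were 2.73 ± 0.47 for Scd1 (adjusted p = 2.42e-04), 0.98 ± 0.18 for Scd2 (adjusted p = 5.13e-04) and 0.76 ± 0.14 for Tm7sf2 (adjusted p = 7.33e-04; edgeR). With lactic acid in both groups they were 3.43 ± 0.74 (adjusted p = 0.0026), 0.77 ± 0.18 (adjusted p = 0.00479) and 0.50 ± 0.14 (adjusted p = 0.0204). The Scd1 value with lactic acid rests on 83 counts with both agents, against 7 with lactic acid alone, and its adjusted p with the replicate block was 0.054. The Tm7sf2 call with lactic acid ended without lactic acid replicate 1 or without either replicate 2 or replicate 3 treated with both agents (adjusted p = 0.116, 0.061 and 0.106).

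Among the regulators, Srebf1 had 118, 121 and 128 CPM with TGF-beta alone at 24 h, against 97.5, 103 and 99.4 CPM with neither. These values did not overlap, and the log2 difference was 0.29 ± 0.08 (adjusted p = 0.029), a call that ended without any 1 of 5 of the 6 libraries, namely all 3 with neither agent and replicates 2 and 3 with TGF-beta (adjusted p = 0.0547 to 0.137). Srebf2 had 449, 452 and 452 CPM, against 439, 438 and 458 CPM, with a log2 difference of 0.02 ± 0.09 (adjusted p = 0.919), and Insig1 had 71.0, 65.2 and 65.9 CPM, against 67.5, 63.8 and 62.2 CPM, with 0.06 ± 0.15 (adjusted p = 0.835). The libraries overlapped between the groups for both Srebf2 and Insig1. Pmvk was the member called lower (-0.44 ± 0.10, adjusted p = 0.00648), with 22.3, 24.3 and 21.8 CPM with TGF-beta alone, against 31.3, 33.5 and 27.9 CPM with neither, and no overlap. With the replicate block, Lss was also called lower in both 24 h comparisons (-0.43 and -0.60), and Ebp (0.31 and 0.38) and Sc5d (0.31 and 0.32), a sterol isomerase and a sterol desaturase, were called higher.

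At 72 h, TGF-beta went with higher Scd1 and lower Fads2, Pmvk, Acaca and Idi1. In Tcon without lactic acid, 3 members were called higher and 5 lower, where 12.7% and 11.7% of all genes were, and with lactic acid 3 higher and 8 lower, where 22.5% and 22.5% were. With relative log expression scaling, the split with lactic acid was 5 higher and 6 lower. The replicate block called 19 without lactic acid (5 higher and 14 lower), against 45.1% of all genes in either direction, and 21 with it (10 higher and 11 lower), against 59.8%, and replicates 2 and 3 alone gave 13 and 18 calls. The median over all members was -0.15 in both comparisons, against -0.03 and -0.02 over all genes. In replicates 2 and 3 alone it was 0.02 and -0.03. The comparison without lactic acid had 2 libraries with neither agent, and in replicates 2 and 3 alone it had 1, assumed to vary like the other groups. The CD8 and NK markers summed to 108 to 124 CPM with both agents, against 40.9 to 103 CPM with lactic acid alone. Cd8a (5.11, 14.4 and 16.1 CPM, against 0.0907, 0.145 and 0.572 CPM) and Klrd1 were higher with both agents, while Nkg7 and Cd8b1 overlapped. The part of such cells was not tested.

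Scd1 had 301, 532 and 604 CPM with TGF-beta alone at 72 h, against 115 and 77.9 CPM with neither, a log2 difference of 2.31 ± 0.33 (adjusted p = 1.12e-05). With lactic acid in both groups it had 277, 272 and 336 CPM with TGF-beta, against 80.3, 58.4 and 56.7 CPM without (2.18 ± 0.28, adjusted p = 1.25e-06). Every library with TGF-beta lay above every library without it. Scd2 was not called in either comparison at 72 h, with 2184, 2440 and 2600 CPM with TGF-beta alone, against 2261 and 2016 CPM with neither, and these values overlapped.

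Fads2 went the other way. It had 33.0, 28.7 and 34.8 CPM with both agents at 72 h, against 99.8, 62.6 and 70.2 CPM with lactic acid alone, with no overlap (-1.27 ± 0.21, adjusted p = 4.65e-05). Without lactic acid it had 54.1, 62.9 and 58.1 CPM with TGF-beta, against 134 and 83.4 CPM with neither (-0.89 ± 0.23, adjusted p = 0.0058). These groups did not overlap either, but without replicate 1 of the group with neither agent the value was -0.49 (adjusted p = 0.195). Fads1 was called higher without lactic acid (0.31 ± 0.11, adjusted p = 0.0465), and that call ended without any 1 of 4 libraries (adjusted p = 0.0764 to 0.249). Elovl5 had 150, 144 and 156 CPM with both agents, against 118, 110 and 102 CPM with lactic acid alone, with no overlap (0.45 ± 0.08, adjusted p = 8.8e-05). Without lactic acid, Elovl5 was higher by 0.43 ± 0.09 (adjusted p = 9.31e-04), and without replicate 2 of the group with neither agent by 0.28 (adjusted p = 0.0581).

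Acaca had 47.1, 64.2 and 68.0 CPM with both agents at 72 h, against 92.9, 96.0 and 122 CPM with lactic acid alone, all lower (-0.79 ± 0.19, adjusted p = 0.00159). Without lactic acid Acaca had 50.5, 58.1 and 80.7 CPM with TGF-beta, against 108 and 97.6 CPM with neither, again all lower, and the difference was -0.71 ± 0.21 (adjusted p = 0.0149), and the call ended without replicate 1 of either group or replicate 2 with TGF-beta (adjusted p = 0.0565 to 0.0962). Fasn was called lower with the replicate block only, by -0.95 without lactic acid (adjusted p = 6.37e-06) and -0.66 with it. Fasn had 301, 548 and 779 CPM with TGF-beta alone, against 696 and 1059 CPM with neither, which overlap. Within replicates 1 and 2 the TGF-beta library was lower, and TGF-beta replicate 3 (779 CPM) had no same-numbered library with neither agent.

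Among the sterol enzymes, Pmvk had 45.1, 39.3 and 45.9 CPM with both agents at 72 h, against 67.1, 62.5 and 65.1 CPM with lactic acid alone (-0.58 ± 0.10, adjusted p = 7.05e-05). Without lactic acid it had 43.0, 47.0 and 46.9 CPM with TGF-beta, against 77.5 and 66.6 CPM with neither (-0.66 ± 0.11, adjusted p = 1.06e-04). Neither pair of groups overlapped, and no single left-out library ended either call. Idi1 had 6.87, 7.50 and 14.5 CPM with both agents, against 14.7, 19.1 and 22.1 CPM with lactic acid alone (-0.95 ± 0.26, adjusted p = 0.005). The highest library with both agents lay just under the lowest with lactic acid alone. Without lactic acid Idi1 had 9.94, 14.3 and 14.5 CPM with TGF-beta, against 21.9 and 24.2 CPM with neither, and differed by -0.83 ± 0.28 (adjusted p = 0.0312), a call that ended without either library with neither agent or without TGF-beta replicate 1 (adjusted p = 0.0693 to 0.141). Hsd17b7, a sterol 3-keto reductase, differed by -0.71 ± 0.22 without lactic acid (adjusted p = 0.0228), and its call ended without replicate 1 of either group or TGF-beta replicate 2 (adjusted p = 0.0645 to 0.151).

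With lactic acid, 4 further sterol enzymes were called lower with TGF-beta and 1 higher. Sqle (-0.44 ± 0.16, adjusted p = 0.0322), Msmo1 (-0.42 ± 0.17, adjusted p = 0.0486), Fdft1, the squalene synthase (-0.39 ± 0.13, adjusted p = 0.0193), and Cyp51, the lanosterol demethylase (-0.39 ± 0.15, adjusted p = 0.0404), each lost the call without any 1 of 4 or 5 of the 6 libraries (adjusted p = 0.0559 to 0.218). In replicates 2 and 3 alone, Cyp51 was at -0.25 and Msmo1 at -0.24, and neither was called. Ebp was higher by 0.36 ± 0.13 (adjusted p = 0.0226), and by 0.27 without replicate 3 with both agents (adjusted p = 0.12).

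Genes around the pathway differed with TGF-beta as well. Npc1, which exports cholesterol from lysosomes, was higher with TGF-beta in all 4 comparisons, by 0.83 ± 0.15 and 0.90 ± 0.15 at 24 h and 1.34 ± 0.17 and 1.30 ± 0.15 at 72 h (without and with lactic acid in each; highest adjusted p = 5.45e-04). Soat1, which turns cholesterol into stored esters, was higher by 0.57 ± 0.09, 0.42 ± 0.09, 0.65 ± 0.10 and 0.84 ± 0.09, and Abcg1, an LXR target that exports sterols, by 1.47 ± 0.33, 1.63 ± 0.35, 2.25 ± 0.38 and 2.07 ± 0.33 in the same order. Npc2 was lower at 72 h (-1.31 ± 0.12 without and -0.96 ± 0.11 with lactic acid). Of 17 other fatty acid genes, 0 were higher and 6 lower at 72 h without lactic acid, against 12.7% and 11.7% of all genes, and 1 was higher and 13 lower with it, against 22.5% and 22.5%. With lactic acid, Hacd1 (-2.11 ± 0.32, adjusted p = 1.05e-05), a dehydratase of the elongation cycle, Hacd2 (-0.72 ± 0.13, adjusted p = 8.72e-05) and Hacd3 (-0.46 ± 0.09, adjusted p = 1.31e-04) were among those lower.

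The difference between the TGF-beta differences at 72 h and at 24 h was tested directly. Without lactic acid 1 member was called, and lower, where 3.33% of all genes were lower, and with lactic acid 1, where 7.67% were. The replicate block called 8 and 6 members in either direction, against 19.3% and 33.4% of all genes. With relative log expression scaling, the split was 1 higher and 0 lower without lactic acid and 2 higher and 1 lower with it. Tm7sf2 was the member called without lactic acid: its TGF-beta difference was smaller at 72 h than at 24 h by -0.71 ± 0.21 (adjusted p = 0.042). That call ended without any 1 of 8 of the 11 libraries (adjusted p = 0.0554 to 0.16). Scd2 was the member called with lactic acid, by -0.94 ± 0.25 (adjusted p = 0.0132), and without 24 h lactic acid replicate 3 by -0.78 (adjusted p = 0.0587). The Scd1 interaction was not called in either.

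The lactic acid comparisons called few members, and those called by the edgeR fit over all libraries without the replicate block were Scd2 and Fads2, both lower with lactic acid. Among Tcon at 24 h without TGF-beta, the edgeR test called no member in either direction, where 0.0835% of all genes were called. There 1 member was higher and 3 lower with an unadjusted p below 0.05 (7.11% of all genes in either direction), DESeq2 called 1 and the replicate block 1, against 4.3% of all genes. With TGF-beta at 24 h 1 member was called lower, as were 0.0696% of all genes, and the replicate block called 1, against 6.57%. At 72 h without TGF-beta the edgeR test called no member (0.0696% of all genes), 3 were lower with an unadjusted p below 0.05 (8.98% of all genes), DESeq2 called 0 and the block called 2 (3.33%). With TGF-beta at 72 h 1 member was lower in Tcon, as were 1.43% of all genes, and the block called 4 (1 higher and 3 lower, against 15.1% of all genes in either direction) and replicates 2 and 3 alone 3. In Treg 1 was lower, as were 1.99% of all genes, and the block called 7 (2 higher and 5 lower, against 19.5%) and replicates 2 and 3 alone 4. The medians over all members were -0.03, -0.09, -0.09, -0.07 and -0.08, against 0.00, 0.00, -0.01, 0.00 and 0.01 over all genes.

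Scd2 had 156, 155 and 109 CPM with TGF-beta plus lactic acid at 24 h, against 312, 295 and 191 CPM with TGF-beta alone. All 3 libraries with lactic acid were lower, by -0.93 ± 0.18 on the log2 scale (adjusted p = 0.0284; replicate block 1.66e-05). The call ended without TGF-beta replicate 1 (adjusted p = 0.236) or 2 (0.168), or, treated with both agents, replicate 2 (0.0704) or replicate 3 (0.233). Without TGF-beta, Scd2 had 94.8, 84.5 and 66.1 CPM with lactic acid, against 156, 138 and 112 CPM with neither, again without overlap (-0.72 ± 0.18, adjusted p = 0.161; replicate block -0.73, adjusted p = 3.79e-04). Scd1 had 0.251, 0.246 and 0.0911 CPM with lactic acid at 24 h, against 1.04, 0.92 and 0.711 CPM with neither, and with 7 and 33 counts in all was not called (adjusted p = 0.598).

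The regulators did not pass the test for lactic acid at 24 h. Srebf1 had 92.1, 94.8 and 111 CPM with lactic acid, against 97.5, 103 and 99.4 CPM with neither (-0.01 ± 0.08, adjusted p = 1). Srebf2 had 462, 488 and 485 CPM, against 439, 438 and 458 CPM (0.10 ± 0.09, adjusted p = 0.918), and Insig1 had 63.0, 61.6 and 59.1 CPM, against 67.5, 63.8 and 62.2 CPM (-0.08 ± 0.15, adjusted p = 0.977). The Srebf1 groups overlapped, all Srebf2 libraries with lactic acid were above the others by less than the test could separate, and Insig1 overlapped by 1 library.

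At 72 h with TGF-beta, Fads2 was the member called in both cell types. In Treg it had 36.0, 27.7 and 29.8 CPM with lactic acid, against 50.2, 63.9 and 56.4 CPM without. In Tcon it had 33.0, 28.7 and 34.8 CPM with lactic acid, against 54.1, 62.9 and 58.1 CPM without. No libraries overlapped in either, and the log2 differences were -0.87 ± 0.21 in Treg (adjusted p = 0.0234; replicate block 2.83e-04) and -0.86 ± 0.21 in Tcon (adjusted p = 0.0315; replicate block 4.33e-04). The Treg call ended without replicate 2 or 3 of either group (adjusted p = 0.0549 to 0.156) and the Tcon call without any of its 6 libraries (adjusted p = 0.0641 to 0.192). The 2 comparisons use different libraries, sorted from cultures of the same treatments. Same-numbered Treg and Tcon libraries deviated together over all genes (correlation 0.49 to 0.77 without lactic acid, 0.32 to 0.65 with it). The 2 comparisons are thus not independent of each other.

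With the replicate block, further members were called at 72 h with TGF-beta. Elovl6, which lengthens palmitate to stearate, had 52.7, 63.5 and 64.4 CPM in Treg with lactic acid, against 24.1, 45.9 and 44.9 CPM without. It was higher in each same-numbered pair (0.69, adjusted p = 1.24e-04; 0.61 and 0.00112 in Tcon). Scd2 was lower with the block in Tcon (-0.43, adjusted p = 0.00522) and Treg (-0.34, adjusted p = 0.0189). Scd1 had 209, 236 and 304 CPM in Treg with lactic acid, against 230, 534 and 625 CPM without, and the larger differences were in replicates 2 and 3 (block -0.86, adjusted p = 0.0297; without the block adjusted p = 0.0662). Idi1 was lower with the block in Treg (-0.48, adjusted p = 0.00779) and Tcon (-0.43, adjusted p = 0.0225), and at 72 h without TGF-beta (-0.50, adjusted p = 0.0298), where Hsd17b7 was as well (-0.64, adjusted p = 0.0308). Of the other fatty acid genes, Acsl3, which activates fatty acids, was lower with lactic acid in Tcon (-0.34 ± 0.09, adjusted p = 0.0481).

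Few members passed the test between Treg and Tcon from the cultures with TGF-beta. Without lactic acid the edgeR test called no member, where 0.216% of all genes were called, 1 was higher with an unadjusted p below 0.05 (5.63% of all genes), DESeq2 called 0 and the replicate block 1 (3.03% of all genes). With lactic acid 1 member was higher, as were 1.29% of all genes, and the replicate block called 3 higher, against 6.87%. Elovl5 had 188, 194 and 189 CPM in Treg with lactic acid, against 150, 144 and 156 CPM in Tcon, and all Treg libraries were above all Tcon libraries (0.34 ± 0.08, adjusted p = 0.0185). The call ended without Tcon replicate 1 (adjusted p = 0.0656) or 2 (0.0927), or Treg replicate 2 (0.0987) or 3 (0.063). With the block, Elovl6 was higher in Treg with lactic acid (0.69, adjusted p = 2.59e-04) and without it (0.61, adjusted p = 0.005), and Fads1 with it (0.25, adjusted p = 0.0423). Acsl3 was also higher in Treg with lactic acid (0.58 ± 0.09, adjusted p = 7.65e-04).

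Without lactic acid, Srebf1 had 246, 288 and 260 CPM in Treg, against 263, 297 and 263 CPM in Tcon (-0.05 ± 0.08). Srebf2 had 403, 508 and 514 CPM in Treg, against 433, 479 and 496 CPM in Tcon (0.02 ± 0.09), and Insig1 had 86.4, 118 and 129 CPM, against 78.4, 108 and 116 CPM (0.14 ± 0.14; adjusted p = 1 for all 3 genes). The cell types overlapped for each of these genes. Scd1 had 230, 534 and 625 CPM in Treg, against 301, 532 and 604 CPM in Tcon, which overlapped too.

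Further interactions called no member. These were lactic acid with TGF-beta in Tcon at 24 h (0% of all genes called) and at 72 h (0.104%), lactic acid with cell type at 72 h (0%), and lactic acid with time in the presence of TGF-beta (0.0278%). In each of the 4, no member passed an unadjusted p of 0.05, and DESeq2 called 0 in each. A missed threshold does not show that the lactic acid differences were alike.

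Levels of the sterol enzymes differed with the replicate number. Over all genes, the third principal component also set replicate 1 apart at 72 h. The counts below were not made over all genes, so nothing particular to these enzymes is read from them. Of the 18 enzymes from acetyl-CoA to cholesterol, 18 were lowest in replicate 1 in Tcon at 72 h with TGF-beta alone, 16 in Tcon with both agents, 16 in Treg with TGF-beta alone and 15 in Treg with both. Replicate 3 was highest for 13, 18, 14 and 14 of them. In Tcon with lactic acid alone at 72 h 9 were lowest in replicate 1 and 7 highest. At 24 h replicate 3 was lowest for 14 to 17 of the 18 enzymes in each of the 4 groups, and replicate 1 was highest for 12 to 16. Hmgcs1 had 160, 309 and 333 CPM in replicates 1, 2 and 3 of Treg with TGF-beta alone, and 180, 277 and 318 CPM in Tcon. Replicate 1, the replicate from male mice, was the low library in both of these 72 h groups, while at 24 h it was the highest for most of the enzymes.

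**Figure D4:**
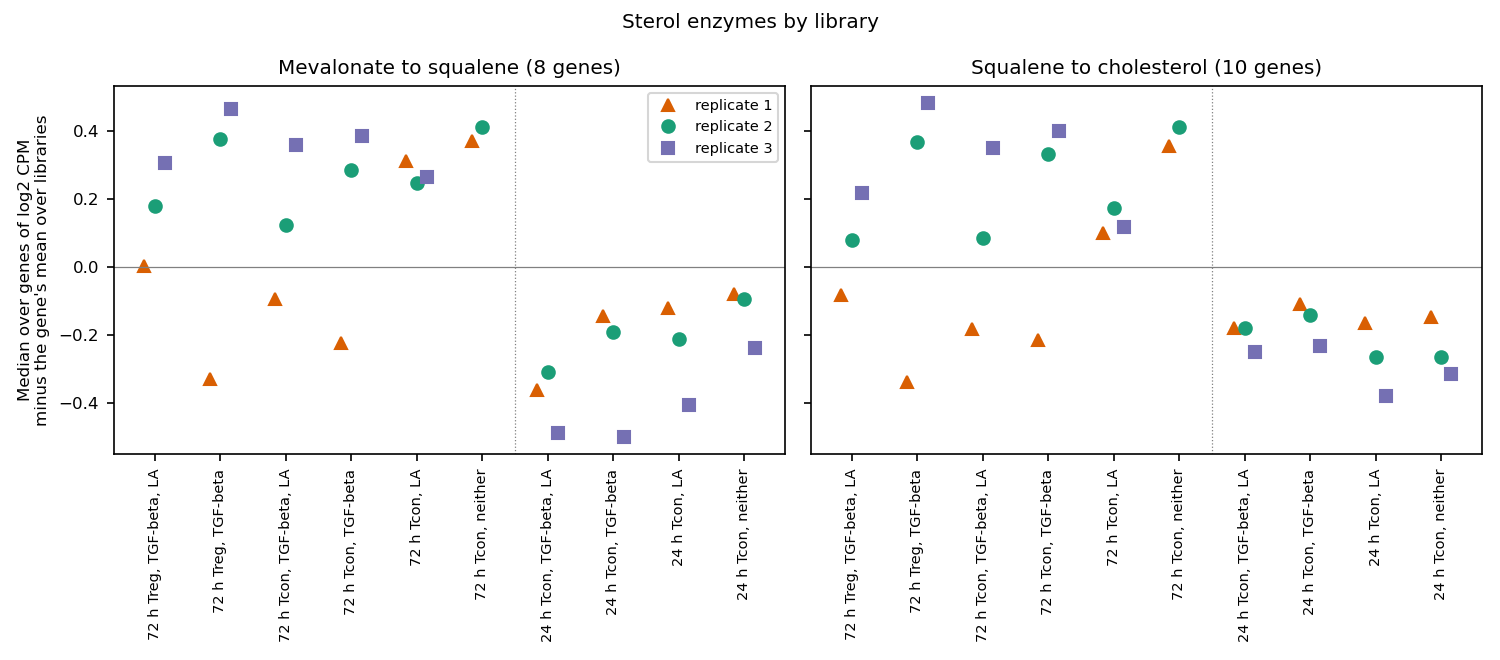
Median over the 8 enzymes up to squalene (left) and the 10 enzymes from squalene to cholesterol (right) of log2 CPM minus the gene's mean over all libraries, 1 point per library, with the groups along the horizontal axis (LA for lactic acid) and a marker for each replicate number. Replicate 1 is the lowest in the 72 h groups with TGF-beta (for the enzymes from squalene to cholesterol in Treg with TGF-beta alone -0.34, against 0.37 and 0.48 in replicates 2 and 3), and at 24 h replicate 3 is the lowest.

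At 72 h, the same-numbered pairs differed among themselves in what lactic acid and TGF-beta went with. In same-numbered pairs of Treg libraries, lactic acid went with lower levels of 3 of the 18 sterol enzymes in replicate 1 (median log2 difference 0.16), 15 in replicate 2 (-0.21) and 14 in replicate 3 (-0.17). In Tcon with TGF-beta it was 8 (0.08), 16 (-0.18) and 13 (-0.08), and in Tcon without TGF-beta 15 in replicate 1 and 16 in replicate 2. TGF-beta without lactic acid went with lower levels of 17 enzymes in replicate 1 (median -0.61) and 10 in replicate 2 (-0.06), and with lactic acid of 13 in replicate 1 (-0.40), 11 in replicate 2 (-0.20) and 7 in replicate 3 (0.15). These are descriptions of single pairs, with no test. The share of all genes that were lower in each pair was not counted, so nothing particular to the sterol enzymes is read from them.

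Some members share long stretches of sequence with other genes, and their counts are uncertain to that extent. Of all 65-base words of the member's transcripts, 36.0% of those of Acat2 are also in Acat3, 27.4% of those of Acaca in Gm5182, 22.5% of those of Fdps in Gm43738 and 17.1% of those of Idi1 in Gm13502. Tm7sf2 shares 9.24% with its neighbour Vps51. Fdft1 shares 16.8% with Ctsb on the opposite strand, and the strand setting of the counting is not given in the sources used here. Dhcr7, Elovl1, Elovl6, Hmgcs1, Mvk and Nsdhl were not called in any of the 15 comparisons between 2 groups without the block.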

How the data were processed

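RNA was sequenced from 29 libraries with a stranded mRNA kit, per the labels' protocols. The deposited values are whole-number counts per gene, which the authors made with STAR 2.7.3a and HTSeq 0.12.4 on GRCm39, per the submitters' processing notes. DESeq2 1.30.1 is named there too, without a role. The annotation release and the strand setting were not given in the sources used here. Of 55414 gene identifiers, 52081 matched a mouse symbol, and the 3333 others held 0.332 to 1.05% of a library's counts. HTSeq summary lines stayed out of the library totals: 13.3 to 17.0% of reads were listed as low in quality, 5.72 to 11.2% as in no feature and 1.01 to 1.13% as ambiguous. Gene totals were 9754511 to 14315313 counts a library.

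Counts were fitted with edgeR 4.0.16 (R 4.3.3, limma 3.58.1): filterByExpr, TMM scaling, and 1 quasi-likelihood fit over all 29 libraries and 14375 genes, without a replicate term. Each comparison was a contrast of this fit, with Benjamini-Hochberg adjustment over all genes and calls at an adjusted p under 0.05. The standard error is the log2 fold change divided by the square root of F. CPM values use the scaled library sizes. For lactic acid in Tcon at 72 h with TGF-beta, the fit recovered most changes planted in simulated data. The planted log2 changes were 1 or more in size, in genes of moderate or high level, with replicates drawn independently. Smaller changes, genes with few counts and a spread shared by replicate number were not covered. The members and lists were chosen with earlier results of these data known. For each comparison, values in every library were given for up to 4 called members with the largest change, and for Srebf1, Srebf2 and Insig1 in the first comparison of each kind; Elovl6, Fasn and Hmgcs1, the values of members that were not called, and repeats at another treatment were chosen after their values were seen. Genes outside the set were limited to 3 called genes per list and comparison, by smallest p, and some such genes are not reported here.

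Replicate numbers were checked for pairing by correlating the libraries' deviations from their group means. The correlation was over 0.1 in all 31 same-numbered pairs within a time (0.12 to 0.77), so same-numbered libraries of 1 time were treated as pairs. The 62 different-numbered pairs within a time ranged from -0.72 to 0.51, which overlaps. Deviations from a group mean cancel out within the group, which pulls the different-numbered values down. Both ends of that range come from pairs with the group of 2 libraries, where each value mirrors another (0.72 and -0.72). The pairs also reuse the same libraries. At 72 h, replicate 3 with both agents correlated at 0.33 with lactic acid replicate 2 and at 0.24 with lactic acid replicate 3. The check thus does not settle that replicates 2 and 3 pair by number. The labels give only that replicate 1 came from male mice. The 11 same-numbered pairs between the times were not all over 0.1 (-0.06 to 0.15). Alternatives were the replicate block, DESeq2 1.42.0, relative log expression scaling, no low-count filter, only the compared groups, replicates 2 and 3 only, and each library left out in turn.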

Additional observations from a re-analysis of the deposited data

Results flagged for a closer look

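The TGF-beta difference of 2 members differed between the times, by a direct test of the difference (edgeR quasi-likelihood, adjusted over all genes). For Tm7sf2 without lactic acid, the log2 TGF-beta difference at 72 h minus that at 24 h was -0.71 ± 0.21 (adjusted p = 0.042), a call lost without any 1 of 8 of the 11 libraries and under relative log expression scaling, no low-count filter, replicates 2 and 3 only and the compared groups alone. For Scd2 with lactic acid it was -0.94 ± 0.25 (adjusted p = 0.0132), lost without 24 h lactic acid replicate 3 (adjusted p = 0.0587) and with no low-count filter. Why they differ was not tested.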

How the results depend on the processing

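No member's call changed direction under any alternative tried. Of 108 calls of single members, 71 held with each library of the comparison left out in turn, 80 under all other alternatives and 70 under all of them. The counts below are members called in either direction, with LA for lactic acid. They are given without the share of all genes called under each alternative, so nothing particular to the members is read from them. The replicate block within a time gave, for LA, 1 at 24 h without TGF-beta, and at 72 h 2 without TGF-beta, 4 in Tcon with TGF-beta and 7 in Treg; for TGF-beta, 8 (24 h), 9 (24 h with LA), 19 (72 h) and 21 (72 h with LA); for Treg against Tcon, 1 without and 3 with LA; and for TGF-beta by time, 8 without and 6 with LA. Numbers do not pair libraries across the times, and a replicate block there gave 20, 19, 20 and 20 calls for neither, LA, TGF-beta and both.

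DESeq2 gave 1 and 3 for LA at 24 h without and with TGF-beta, 6 for TGF-beta at 24 h with LA, and 2 and 3 for TGF-beta by time without and with LA. Relative log expression scaling gave 5 for TGF-beta at 24 h with LA and 3 for TGF-beta by time with LA. With no low-count filter, 0 were called for LA at 72 h with TGF-beta in Tcon or in Treg, for Treg against Tcon with LA and for TGF-beta by time without or with LA. Replicates 2 and 3 alone gave 0 for LA at 24 h with TGF-beta, 3 in Tcon and 4 in Treg at 72 h with TGF-beta, 9, 8, 13 and 18 for TGF-beta at 24 h, 24 h with LA, 72 h and 72 h with LA, 1 and 2 for Treg against Tcon without and with LA, and 2 and 3 for TGF-beta by time. The compared groups fitted alone gave 0 for LA in Treg, 10 and 9 for TGF-beta at 24 h without and with LA, 2 for TGF-beta at 72 h, 0 for Treg against Tcon with LA, and 0 and 2 for TGF-beta by time.

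With each library left out in turn, LA gave 0 to 0 (24 h), 0 to 1 (24 h with TGF-beta), 0 to 0 (72 h), 0 to 0 (72 h Tcon with TGF-beta) and 0 to 2 (Treg). TGF-beta gave 4 to 5, 2 to 4, 3 to 9 and 7 to 10 in the order above, Treg against Tcon 0 to 0 and 0 to 1, time 12 to 17 (neither), 15 to 19 (LA), 15 to 22 (TGF-beta) and 16 to 20 (both), TGF-beta by time 0 to 2 and 1 to 3, and the other interactions 0 to 0. The causes were not tested. The group with 2 libraries, the few Scd1 and Fads2 counts at 24 h and a spread between replicates shared by the sterol enzymes limit what these counts can show.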
